A study of Mus musculus with 2 samples.

Results

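Fragments of H/ACA box small nucleolar RNAs (snoRNAs) and of small Cajal body RNAs (scaRNAs) were counted in small RNA libraries of J1 mouse embryonic stem (ES) cells. The members are the gene symbols of the GENCODE vM21 annotation (GRCm38) that start with Snora or Scarna. A tag is a distinct sequence with its number of clean reads. It was counted for a member when it matched the annotated transcript in sense without a mismatch. Tags that matched an annotated miRNA hairpin with a symbol that starts with Mir were left out. The annotation held 49 such symbols, 40 Snora and 9 Scarna, and 46 of them had at least 1 read. Together they took 792 of the 1766298 distinct tags. J1 is an established ES cell line from male mouse embryos, grown here without feeder cells on gelatin in medium with leukaemia inhibitory factor (LIF). Cells were treated for 24 h with 1 mM AICAR, a cell-permeable nucleoside that activates the energy-sensing kinase AMPK, or with the same volume of its solvent DMSO. There was 1 library per condition, so the differences below have no replicate check and no p-value is given. The title of the control sample differs from its treatment label, and the DMSO label was followed.

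H/ACA snoRNAs fold into a pair of hairpins joined by a hinge, and each hairpin has an internal loop that can base pair with a target RNA. With the proteins dyskerin (Dkc1), Nhp2, Nop10 and Gar1 they guide the conversion of uridine to pseudouridine in ribosomal RNA, and a few members act in the cleavage of the ribosomal RNA precursor instead. ScaRNAs do similar work on spliceosomal RNAs in Cajal bodies, nuclear compartments in which these RNAs mature. Most mouse snoRNAs are released from introns of other genes after splicing, and exonucleases trim the ends until the bound proteins stop them. The trinucleotide ACA stands 3 nt before the end of a mature H/ACA RNA. These letters were found there in 36 of the 49 members, in 34 of the 40 Snora RNAs and in 0 of 98 transcripts of the C/D box class (Snord), which carries other boxes.

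The 12 RNAs below carry most of the results. Each is the GENCODE vM21 transcript written 5′ to 3′ in DNA letters, and the capitals mark its most abundant tag, by reads summed over DMSO and AICAR. The first 3 lie in 1 host gene, Snhg12, and show a tag at the 3′ end, a tag at the 3′ end and a tag at the 5′ end.
Snora16a (chr4:132309464-132309600, plus strand): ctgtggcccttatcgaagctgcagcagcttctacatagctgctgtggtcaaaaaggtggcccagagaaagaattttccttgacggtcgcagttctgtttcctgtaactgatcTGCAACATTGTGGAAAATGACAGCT
Snora61 (chr4:132310240-132310369, plus strand): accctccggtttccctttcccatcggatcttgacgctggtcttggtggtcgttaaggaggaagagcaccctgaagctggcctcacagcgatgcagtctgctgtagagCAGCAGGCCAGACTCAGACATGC
Snora44 (chr4:132309941-132310069, plus strand): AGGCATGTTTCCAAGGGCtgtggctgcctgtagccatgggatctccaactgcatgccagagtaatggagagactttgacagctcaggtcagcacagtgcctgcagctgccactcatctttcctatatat
Snora57 (chr19:8888538-8888685, minus strand): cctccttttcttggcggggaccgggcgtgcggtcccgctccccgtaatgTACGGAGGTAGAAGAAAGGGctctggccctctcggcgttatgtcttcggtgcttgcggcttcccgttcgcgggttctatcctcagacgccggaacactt
Snora81 (chr16:23110756-23110933, plus strand): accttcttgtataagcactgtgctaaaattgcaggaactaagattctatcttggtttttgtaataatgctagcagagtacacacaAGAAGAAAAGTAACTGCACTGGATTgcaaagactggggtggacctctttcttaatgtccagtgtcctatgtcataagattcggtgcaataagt
Snora7a (chr6:115807975-115808114, minus strand): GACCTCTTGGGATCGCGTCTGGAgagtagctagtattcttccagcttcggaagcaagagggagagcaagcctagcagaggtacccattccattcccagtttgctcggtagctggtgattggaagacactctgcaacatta
Snora24 (chr3:123507937-123508066, minus strand): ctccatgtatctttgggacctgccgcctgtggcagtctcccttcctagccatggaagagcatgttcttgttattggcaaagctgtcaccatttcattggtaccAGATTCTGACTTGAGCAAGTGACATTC
Snora41 (chr1:63179004-63179135, plus strand): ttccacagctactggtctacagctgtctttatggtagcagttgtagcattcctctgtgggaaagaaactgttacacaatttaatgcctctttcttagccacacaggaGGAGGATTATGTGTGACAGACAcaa
Snora70 (chrX:74272484-74272620, plus strand): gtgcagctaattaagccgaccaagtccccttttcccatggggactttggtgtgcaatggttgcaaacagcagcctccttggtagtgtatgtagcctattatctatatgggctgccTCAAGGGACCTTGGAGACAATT
Scarna3a (chr1:159340283-159340422, plus strand): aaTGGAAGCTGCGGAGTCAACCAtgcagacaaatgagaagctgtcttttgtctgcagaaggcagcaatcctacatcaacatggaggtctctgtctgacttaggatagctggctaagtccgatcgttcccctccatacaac
Scarna3b (chr12:80391613-80391751, minus strand): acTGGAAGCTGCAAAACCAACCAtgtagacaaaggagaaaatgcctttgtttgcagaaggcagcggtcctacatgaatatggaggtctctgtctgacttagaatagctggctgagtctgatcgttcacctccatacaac
Snora36b (chr1:185242907-185243038, plus strand): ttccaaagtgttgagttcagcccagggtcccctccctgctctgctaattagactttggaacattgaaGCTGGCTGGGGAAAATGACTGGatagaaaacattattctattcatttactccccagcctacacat

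The DMSO library held 18870345 clean reads and the AICAR library 21091226, and all levels are reads scaled to 1000000 clean reads (RPM). A single read is worth 0.0530 RPM in DMSO and 0.0474 in AICAR, and 3 reads were taken as the floor (0.159 and 0.142 RPM). The ES cell hairpins of the miR-290 cluster found in the annotation (Mir290a, Mir291a, Mir293, Mir294 and Mir295) ranged from 1941 to 12290 RPM in DMSO and from 4648 to 20095 in AICAR. Hairpins that mark other cell types were lower in both libraries, from 0.318 RPM (Mir133a-1, muscle) to 257 RPM (Mir124a-1, neurons) in DMSO. The liver hairpin Mir122 stood at 2.91 RPM in DMSO and 25.4 in AICAR, and the others differed by 0.918-fold to 2.68-fold. Tags under 21 nt made up 21.3% of all clean reads in DMSO and 16.3% in AICAR. RNA of 18 to 30 nt was selected before sequencing, so the values describe fragments and not the level of the whole RNAs. In bulk RNA, fewer cells with an RNA and less of it per cell cannot be told apart.

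The total over all members was nearly the same in both libraries, while single members moved in opposite directions. Member tags took 3037 reads in DMSO (160.9 RPM) and 3581 in AICAR (169.8 RPM), a ratio of 1.06 (95% interval 1.00 to 1.11). This and all other intervals of a fold are exact binomial intervals and cover only the counting error of these libraries. The C/D box snoRNAs gave a like ratio, 1.06 (1.04 to 1.08), from 1097 and 1161 RPM. Fragments of spliceosomal RNAs stood at 0.809 (0.794 to 0.824) and reads on miRNA hairpins at 1.36 (1.36 to 1.36). Within the members, Snora fragments went from 148 to 161 RPM, a ratio of 1.09 (1.03 to 1.14). Scarna fragments went from 12.8 to 8.87 RPM, a ratio of 0.694 (0.570 to 0.844).

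Few members carried most of the reads, and these decided the total. The 5 members with the most reads held 65.4% of member reads in DMSO and 69.9% in AICAR. Snora57 alone took 33.3% in DMSO and 9.94% in AICAR, whereas Snora16a took 13.7% and 33.3%. Without Snora57 the total was 1.42-fold higher in AICAR (1.35 to 1.51). Without Snora16a and Snora61 it stood at 0.719 (0.678 to 0.763), and without these 3 at 0.994 (0.926 to 1.07).

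Of the 49 members, 24 reached 1 RPM in at least 1 library and were compared singly, 18 Snora and 6 Scarna. Of these, 2 were at least 2-fold higher in AICAR (Snora61 and Snora16a), which is 8.33% of the 24. Among all 12710 gene symbols treated the same way the share was 5.14%, and among 684 other snoRNA, scaRNA and snRNA symbols it was 2.49%. A tag was counted for every symbol it matched, so symbols that share tags, such as a member and its annotated copies, are not independent. Another 3 members stood at 0.5-fold or less (Snora57, Scarna3a and Scarna3b), which is 12.5%, beside 10.4% of all symbols and 7.46% of the other small RNA symbols. Per read on miRNA hairpins in place of clean reads, Snora61 stood at 1.98-fold and Snora16a at 1.89-fold, so that 0 members were at least 2-fold higher and 7 were at 0.5-fold or less. This denominator shifted the log2 fold of every symbol by -0.44. The shares of all symbols were not counted with it, so the 7 cannot be set beside the 10.4%. The counts are small, and in RPM of clean reads the down-regulated share lies near that of all genes. The median fold was 0.939 over the 24 members, 0.859 over all symbols, 0.669 over the other small RNA symbols and 0.998 over 54 Snord symbols. The RPM was higher in AICAR for 8 members and lower for 16, a split near that of all 12710 symbols, of which 64.7% were lower. The interval of the fold lay above 1 for 3 members, below 1 for 5 and held 1 for 16. These interval counts were not made over all symbols.

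**Figure D1:**
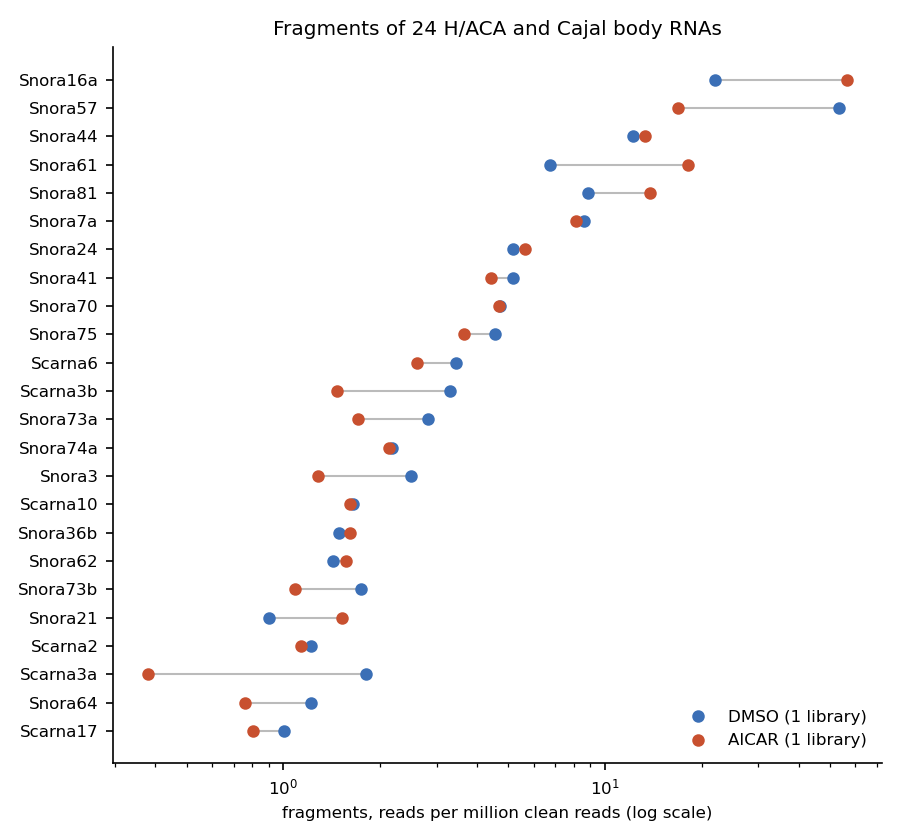
Fragments of the 24 members that reached 1 RPM, in RPM of clean reads on a log axis, with 1 blue point for the DMSO library and 1 orange point for the AICAR library. Snora57 is the highest member in DMSO (53.5 RPM) and Snora16a in AICAR (56.6 RPM), whereas Snora70, Snora74a and Scarna10 nearly overlap.

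**Figure D2:**
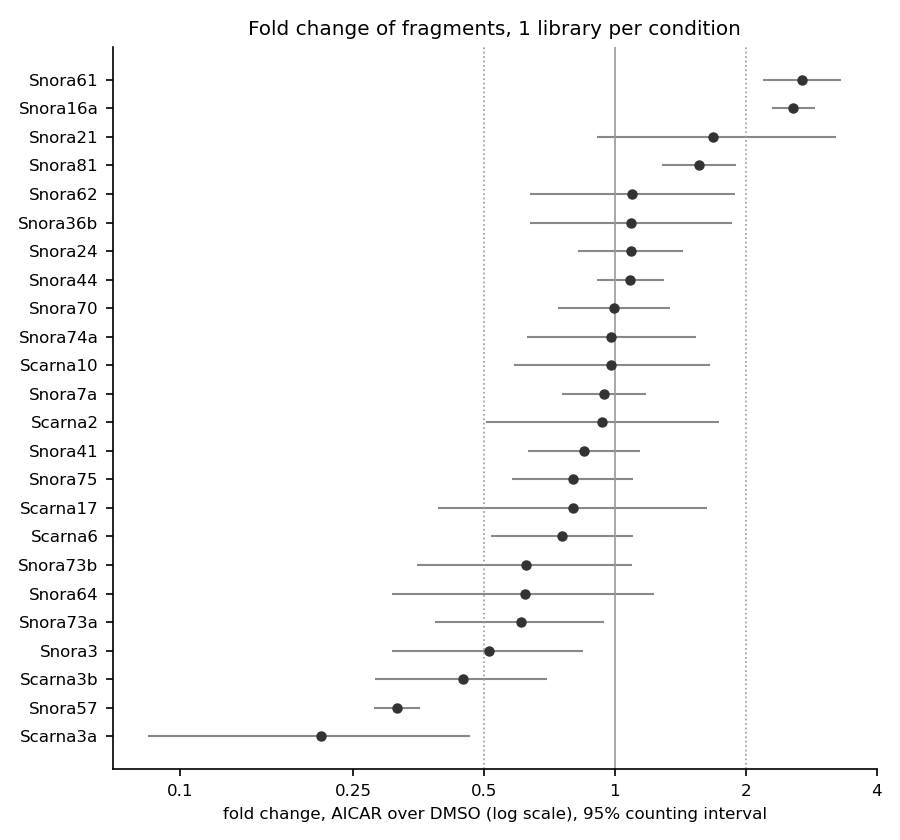
Fold change AICAR over DMSO of the same 24 members on a log axis, with 95% exact binomial intervals that cover counting error only and dotted lines at 0.5 and 2. In RPM of clean reads, Snora61 and Snora16a lie beyond 2 with their whole interval (1.98 and 1.89 per read on miRNA hairpins), and Snora57 and Scarna3a below 0.5.

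The largest gains in RPM came from members placed in a single host gene. Snhg12 is a long non-coding RNA gene on chromosome 4 that hosts Snora16a, Snora44, Snora61 and the C/D box RNA Snord99, and the 3 H/ACA members lie in exons of annotated Snhg12 transcripts. Snora16a had 415 reads in DMSO (22.0 RPM) and 1193 in AICAR (56.6 RPM), a fold of 2.57 (2.30 to 2.88). The annotation holds 2 entries named Snora16a. The place given is that of 1 entry, and reads were not split between them. Snora61 had 127 reads (6.73 RPM) and 382 (18.1 RPM), a fold of 2.69 (2.20 to 3.32). Snora44, between them on the chromosome, had 231 reads (12.2 RPM) and 280 (13.3 RPM), a fold of 1.08 (0.908 to 1.30). So AICAR stood well above DMSO for both outer members and close to it for Snora44. Snord99 had 20 and 36 reads, a fold of 1.61 (0.908 to 2.94). Tags of Snhg12 transcripts outside these RNAs had 18 and 50 reads, a fold of 2.49 (1.42 to 4.53).

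Both up-regulated members were represented almost wholly by their 3′ ends. In Snora16a, 412 of 415 reads in DMSO and 1182 of 1193 in AICAR were on tags that ended within 5 nt of the annotated 3′ end, and 98.8% of all its reads shared the last nucleotide. The 5′ ends of these tags varied. The tag of 25 nt shown in capitals above (positions 113 to 137) had 189 and 698 reads, a fold of 3.30 (2.81 to 3.90). A tag 1 nt longer had 19 and 115 reads, a fold of 5.42 (3.31 to 9.32), whereas the tags of 20 nt (33 and 36 reads) and 19 nt (28 and 37 reads) with the same end stood at 0.976 (0.592 to 1.62) and 1.18 (0.704 to 2.01). The longer tags were thus the ones higher in AICAR, and the shorter ones were close to equal. In Snora61, tags that ended within 5 nt of the 3′ end had 110 of 127 reads in DMSO and 352 of 382 in AICAR. Its leading tag of 23 nt (positions 108 to 130) had 69 and 183 reads, a fold of 2.37 (1.79 to 3.18), and the tag 1 nt shorter had 22 and 90, a fold of 3.66 (2.28 to 6.13).

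Snora44 gave fragments of the opposite end. Tags that started within 2 nt of its annotated 5′ end had 223 of 231 reads in DMSO and 271 of 280 in AICAR, and their 3′ ends varied. The 18-nt tag shown in capitals had 68 reads in DMSO and 40 in AICAR, a fold of 0.526 (0.347 to 0.789). The 20-nt tag from the same start had 46 and 57 reads, a fold of 1.11 (0.739 to 1.67), and the 26-nt tag had 19 and 43, a fold of 2.02 (1.16 to 3.68). The near-equal total of Snora44 was therefore a sum over short tags that were lower and longer tags that were higher in AICAR.

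**Figure D3:**
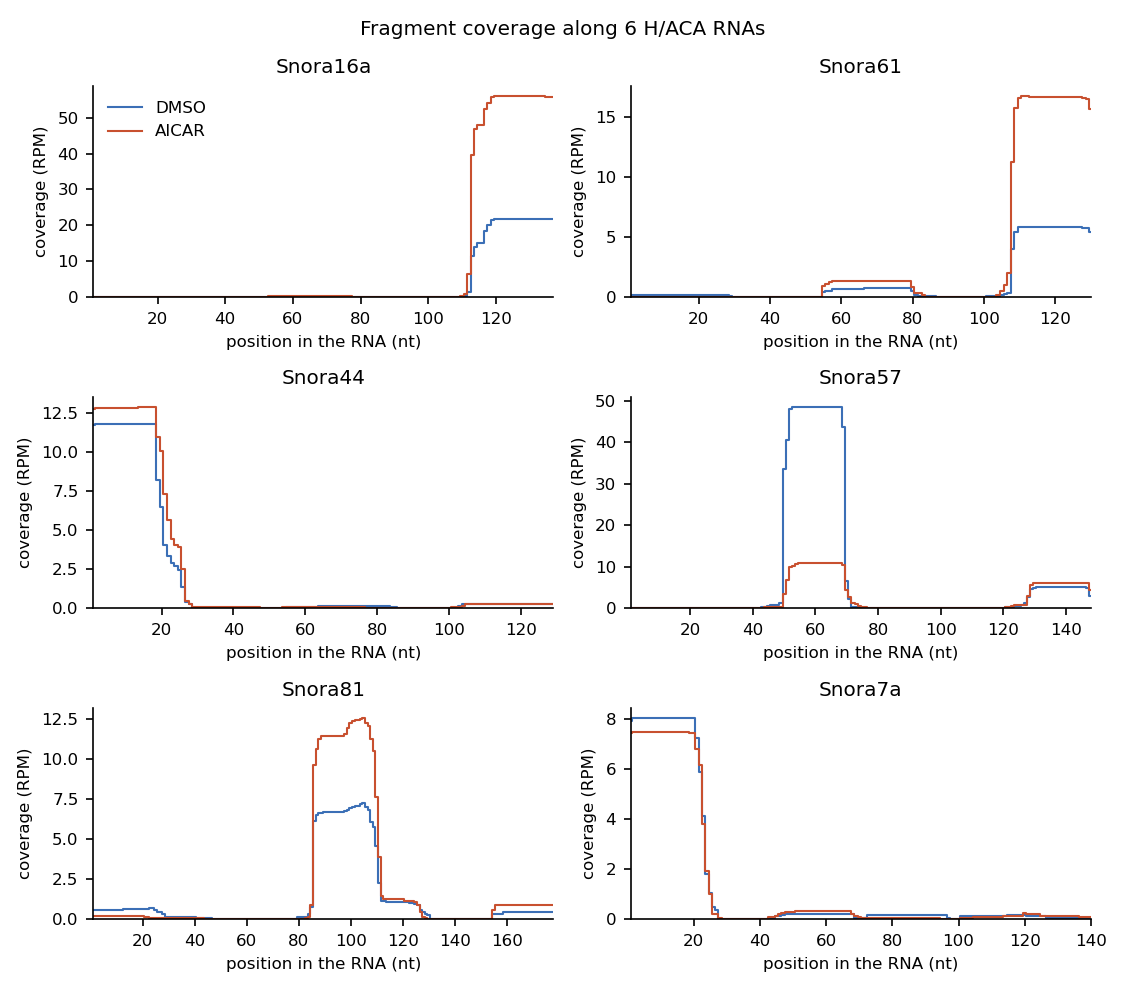
Coverage in RPM at each position (nt from the annotated 5′ end) of 6 H/ACA RNAs, in the DMSO library (blue) and the AICAR library (orange), with an RPM axis of its own for each RNA. Snora16a and Snora61 are covered at the 3′ end, Snora44 and Snora7a at the 5′ end, and Snora57 and Snora81 mainly inside the RNA.

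Snora57 was the most down-regulated of the abundant members, and the difference lay in 1 internal fragment. It had 1010 reads in DMSO (53.5 RPM) and 356 in AICAR (16.9 RPM), a fold of 0.315 (0.279 to 0.356). The 20-nt tag shown in capitals, at positions 50 to 69, had 512 reads in DMSO and 47 in AICAR, a fold of 0.0821 (0.0596 to 0.111). Tags that started at position 51 had 129 and 74 reads (0.513, 0.380 to 0.688) and those from position 52 had 142 and 65 (0.410, 0.301 to 0.553). Tags that ended within 5 nt of the 3′ end had 94 and 128 reads, a fold of 1.22 (0.926 to 1.61). Those that ended at the last nucleotide itself had 56 and 93 reads, a fold of 1.49 (1.06 to 2.11). In this RNA the internal fragments were thus lower in AICAR, and the 3′-end fragments were not. The interval of the 3′-end fragments held 1 for ends within 5 nt and lay above 1 for the exact end. Tags under 21 nt had 903 and 259 reads, a fold of 0.257 (0.223 to 0.295), and longer tags 107 and 97, a fold of 0.811 (0.610 to 1.08). The longer tags include 3′-end fragments. Those that started at positions 50 to 52 had 49 and 31 reads, a fold of 0.566 (0.349 to 0.906). No annotated gene hosts Snora57 on its strand. The tags cannot be assigned to it alone, since 99.7% of its reads also matched an annotated copy, Gm26132.

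Snora81, in an intron of the translation factor gene Eif4a2, was the third abundant member with an interval above 1. It had 167 reads in DMSO (8.85 RPM) and 291 in AICAR (13.8 RPM), a fold of 1.56 (1.28 to 1.90). Its 25-nt tag at positions 86 to 110 had 40 and 69 reads, a fold of 1.54 (1.03 to 2.34), and the 24-nt and 26-nt tags with the same start had 18 and 48 and 21 and 45. Reads on the 3′ side of the RNA, with the middle of the tag past the middle of the transcript, stood at 1.66 (1.36 to 2.03). The few on the 5′ side, 13 and 5, stood at 0.344 (0.0961 to 1.03). Other annotated genes, Gm22519 among them, share 93.7% of Snora81 reads.

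The other abundant H/ACA members differed little. Snora7a, in the gene of ribosomal protein Rpl32, had 162 and 171 reads (8.58 and 8.11 RPM), a fold of 0.944 (0.757 to 1.18), mostly from its 5′ end. Snora24, in Snhg8, had 98 and 119 reads (5.19 and 5.64 RPM), a fold of 1.09 (0.825 to 1.43), and was a 3′-end member. Within Snora24 the 27-nt tag in capitals had 24 and 61 reads, a fold of 2.27 (1.40 to 3.81), and the 29-nt tag 19 and 4, a fold of 0.188 (0.0466 to 0.567). Snora41, in Eef1b2, had 98 and 93 reads (5.19 and 4.41 RPM), a fold of 0.849 (0.632 to 1.14). Snora70, in the ribosomal protein gene Rpl10, had 89 and 99 reads (4.72 and 4.69 RPM), a fold of 0.995 (0.740 to 1.34), and all of its reads also matched annotated copies. Snora75, in the gene of nucleolin (Ncl), had 86 and 77 reads (4.56 and 3.65 RPM), a fold of 0.801 (0.581 to 1.10).

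Among the less abundant Snora RNAs, Snora3 and Snora73a had intervals below 1. Snora3, in Rpl27a, had 47 and 27 reads, a fold of 0.514 (0.308 to 0.842), and 56.8% of its reads also matched other annotated genes. Snora73a and Snora73b are the mouse U17 RNAs, which act in the cleavage of the ribosomal RNA precursor, and both lie in introns of Rcc1. Snora73a had 53 and 36 reads (0.608, 0.387 to 0.946) and Snora73b 33 and 23 (0.624, 0.350 to 1.09). Both hold the same 21-nt tag at positions 121 to 141, with 13 reads in DMSO and 1 in AICAR, and shared tags made up 25.8% and 41.1% of their reads. The remaining Snora members above 1 RPM (Snora21, Snora36b, Snora62, Snora64 and Snora74a) had intervals that held 1. Another 22 members with reads stayed below 1 RPM in both libraries, with 67 reads in DMSO and 112 in AICAR in all and at most 13 in 1 library. Snora15, Snora19 and Snora35 had no read, which allows up to 0.159 RPM in DMSO and 0.142 in AICAR.

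In RPM, all 6 scaRNAs that reached 1 RPM were lower in AICAR, as were 64.7% of all 12710 symbols, and the intervals of 4 of the 6 held 1. Scaled by TMM or by the median ratio, Scarna10 (1.12 and 1.14) and Scarna2 (1.06 and 1.09) were higher in AICAR, and Scarna3b (0.510 and 0.521) no longer stood at 0.5-fold or less. Scarna3a and Scarna3b, closely related H/ACA scaRNAs in introns of Cop1 and Dcaf5, had the lowest folds. Scarna3a had 34 reads in DMSO (1.80 RPM) and 8 in AICAR (0.379 RPM), a fold of 0.211 (0.0842 to 0.463). Scarna3b had 62 reads (3.29 RPM) and 31 (1.47 RPM), a fold of 0.447 (0.281 to 0.699). The 5′-end tags of both, shown in capitals above, had 24 and 6 reads in Scarna3a and 27 and 11 in Scarna3b, and every member read of these RNAs came from the 5′ end. Tags on the miRNA hairpins Mir1843b and Mir1843a, which overlap the 3′ sides of Scarna3a and Scarna3b, were not counted for them and are given further on.

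The scaRNAs with C/D boxes differed less. Scarna6, a mixed C/D and H/ACA scaRNA in Atg16l1, had 65 and 55 reads (3.44 and 2.61 RPM), a fold of 0.757 (0.519 to 1.10), with its leading tag at positions 2 to 26. Scarna10, which guides both kinds of modification on the U5 spliceosomal RNA and lies in Ncapd2, had 31 and 34 reads, a fold of 0.981 (0.585 to 1.65), spread over 33 tags. Scarna2, a C/D scaRNA with no host on its strand, had 23 and 24 reads, a fold of 0.934 (0.505 to 1.73). Scarna17, also of the C/D kind, had 19 and 17 reads, a fold of 0.801 (0.391 to 1.63), and 97.2% of its reads also matched Gm25443. Scarna8, Scarna9 and Scarna13 stayed below 1 RPM, with 4 and 8, 1 and 7, and 2 and 3 reads.

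The members fell into distinct places of origin. Tags that ended within 5 nt of the annotated 3′ end held at least 50% of the reads of 6 of the 24 members (Snora16a, Snora24, Snora41, Snora61, Snora70 and Snora75). Tags that started within 2 nt of the 5′ end held at least 50% in 9 (Scarna17, Scarna3a, Scarna3b, Scarna6, Snora3, Snora44, Snora62, Snora64 and Snora7a), and neither end did in the other 9. Of the Scarna reads, 75.9% in DMSO (95% Wilson interval 70.2 to 80.9) and 68.4% in AICAR (61.5 to 74.7) were 5′-end tags. Among the Snora reads the shares were 17.1% (15.7 to 18.5) and 14.5% (13.4 to 15.7).

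Over all members, 3′-end tags made up 33.8% of the reads in DMSO (32.2 to 35.5) and 58.8% in AICAR (57.1 to 60.4). The 3′-end tags had 1027 and 2104 reads, a fold of 1.83 (1.70 to 1.98). The 5′-end tags had 661 and 620 reads, a fold of 0.839 (0.751 to 0.938), and tags at neither end 1349 and 857, a fold of 0.568 (0.521 to 0.620). The differences of the 3′-end and internal tags rested on 3 RNAs, while that of the 5′-end tags stayed without them. Without Snora16a, Snora57 and Snora61 the fold of 3′-end tags was 0.962 (0.839 to 1.10) and that of 5′-end tags 0.840 (0.752 to 0.939). That of the others was 1.27 (1.12 to 1.44), so the order of 3′-end and internal tags turned round. Snora81, with 167 and 291 reads, mostly at neither end, is among these others. Among the 5′-end tags, Scarna3a had 34 and 8 reads, Scarna3b 62 and 31, and Snora44 223 and 271. Folds without Snora81, or without Scarna3a and Scarna3b, were not computed. The 1.27 and the 0.840 are therefore not shown to hold for members in general. The median share of 3′-end reads per member was 7.65% in DMSO and 6.21% in AICAR.

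Member tags were shorter in DMSO than in AICAR. All were 18 to 31 nt long. The most frequent length was 20 nt in DMSO and 25 nt in AICAR, and the median 21 and 24 nt. Tags under 21 nt made up 42.8% of member reads in DMSO and 16.4% in AICAR. The same share was 21.1% and 19.2% for Snord fragments, and 45.1% and 30.8% for fragments of spliceosomal RNAs. Tags of 20 to 24 nt, the length class of miRNAs, held 59.9% (58.2 to 61.7) and 50.7% (49.1 to 52.3) of member reads, beside 93.9% and 97.2% of the reads on miRNA hairpins. Without Snora57 and Snora16a the 20-nt tags held 9.37% and 6.79% of member reads, instead of 25.3% and 8.38%, and the 25-nt tags 9.49% and 11.3%, instead of 11.4% and 26.1%.

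**Figure D4:**
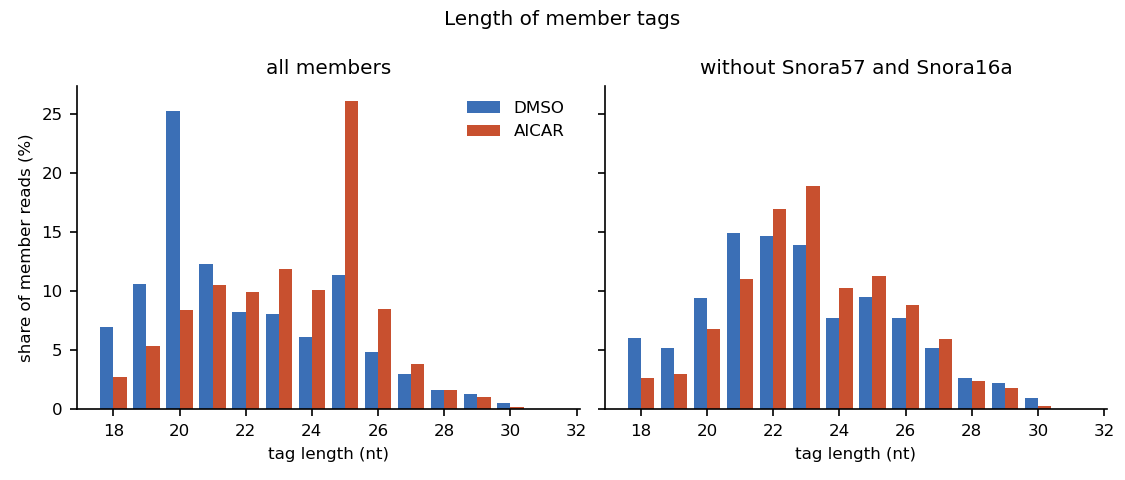
Share of member reads (%) at each tag length (nt) in the DMSO library (blue bars) and the AICAR library (orange bars), for all members on the left and without Snora57 and Snora16a on the right. The peaks at 20 nt in DMSO (25.3%) and at 25 nt in AICAR (26.1%) belong to these RNAs and are absent on the right.

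The fold differed between shorter and longer tags in several RNAs. Over all members, tags under 21 nt stood at 0.405 (0.366 to 0.446) and longer tags at 1.54 (1.45 to 1.64), and without Snora57 at 0.741 (0.639 to 0.860) and 1.59 (1.50 to 1.69). All clean reads moved the same way but less, with 0.767 for tags under 21 nt and 1.06 for longer ones. For spliceosomal RNA fragments the values were 0.554 and 1.02. Of the 9 members with at least 20 reads in both length classes, 8 had the lower fold for the shorter tags, and Snora70 did not. In Snora16a the folds were 1.06 (0.752 to 1.50) for short and 2.85 (2.53 to 3.23) for long tags, and in Snora44 they were 0.713 (0.555 to 0.915) and 1.75 (1.33 to 2.30). The intervals for short and long tags overlapped in Snora3, Snora70, Snora73a, Snora74a, Snora7a and Snora81. The part of the length difference between the libraries in these folds was not tested.

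**Figure D5:**
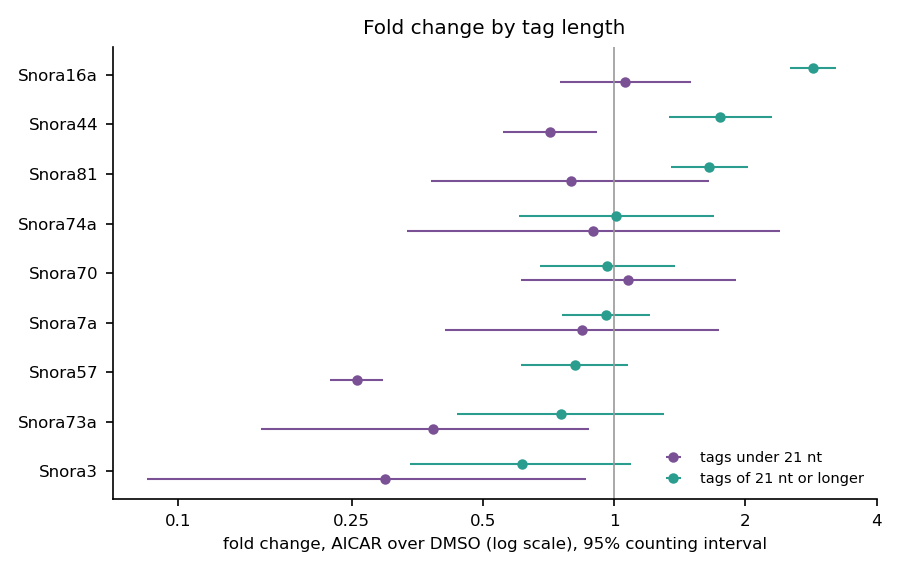
Fold change AICAR over DMSO on a log axis for tags under 21 nt (purple) and of 21 nt or longer (green) in the 9 members with at least 20 reads in both classes, with 95% exact binomial intervals for counting error. The intervals of both classes are apart in Snora16a, Snora44 and Snora57 and overlap in the other 6.

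Each side of each RNA was then examined for fragments cut like a miRNA. A side was listed when it had at least 100 reads over both libraries, at least 50% of them on tags of 20 to 24 nt, at least 50% with the same 5′ end, and tags of 20 to 24 nt on the paired strand of the same stem in the predicted structure. Of 43 sides with at least 10 reads, 12 had at least 100, and 3 of these met all criteria. The 3′ side of Snora61 had 506 reads, 88.7% of 20 to 24 nt and 52.4% from position 108, with 9 reads opposite. The 5′ side of Snora7a had 321 reads, 85.4% of 20 to 24 nt and 95.6% from position 1, with 6 reads opposite and a 3′ overhang of 5 nt. Position 1 is the annotated 5′ end of the RNA, so the shared start of Snora7a cannot show a cut. The 3′ side of Snora41 had 184 reads, 78.3% of 20 to 24 nt and 72.3% from position 108, with 1 read opposite and an overhang of 1 nt. Dicer, the enzyme that releases miRNAs, leaves an overhang of 2 nt on a duplex, which neither Snora7a nor Snora41 had, and in Snora61 no overhang could be measured.

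Another 4 sides met 3 criteria. The 5′ side of Snora57 had 1144 reads, 63.5% of 20 to 24 nt and 59.3% with the same start, but no read on the opposite strand. The 3′ side of Snora81 had 440 reads, 65.0% with the same start and 27 opposite, but only 42.7% of 20 to 24 nt. The 3′ side of Snora75 had 145 reads, 53.8% of 20 to 24 nt and 16 opposite, but its most frequent start held 17.2%. The 5′ side of Snora64, named here after its values were seen, had only 33 reads, with 81.8% of 20 to 24 nt, 78.8% with the same start, 2 reads opposite and an overhang of 2 nt. Its shared start is also the annotated 5′ end. Snora16a, with the most reads of all on its 3′ side (1595), had 29.8% of them at 20 to 24 nt and none opposite.

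Some members overlap annotated miRNA hairpins or share sequence with them, and the rule kept 62 tags that match such hairpins out of the counts above. Of these, the tags of Mir664 inside Snora36b were the most abundant, with 273 reads in DMSO and 225 in AICAR, a fold of 0.737 (0.615 to 0.883). Their leading tag covered positions 69 to 90 of Snora36b and had 162 and 153 reads. The member tag of Snora36b in capitals above starts 1 nt before it, outside the annotated hairpin, and had 11 and 15 reads. With the hairpin tags added, the 3′ side of Snora36b met all criteria above, with 557 reads, 99.3% of 20 to 24 nt, 70.7% from the same start, 21 opposite and an overhang of 0 nt. The mature miRNAs of Mir664 and of the hairpins in Scarna3a and Scarna3b are given below from RefSeq (GRCm38.p6), with the seed, bases 2 to 8, in capitals.
mmu-miR-664-5p: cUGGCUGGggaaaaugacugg
mmu-miR-664-3p: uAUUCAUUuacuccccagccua
mmu-miR-1843b-5p: aUGGAGGUcucugucugacuu
mmu-miR-1843b-3p: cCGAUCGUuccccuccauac
mmu-miR-1843a-5p: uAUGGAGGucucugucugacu
mmu-miR-1843a-3p: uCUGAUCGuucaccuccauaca

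No seed is shared among these 6 miRNAs as annotated. The hairpin tags of Mir1843b in Scarna3a had 13 and 9 reads, a fold of 0.619 (0.234 to 1.57), and those of Mir1843a in Scarna3b had 17 and 15, a fold of 0.789 (0.367 to 1.68). The hairpin tags of Mir1291 in Snora34 had 9 and 13 reads, and those of Mir3069 in Scarna13 had 7 and 5. Mir3084-1 lies at another place on chromosome 19 than Snora19, and the tags that match both had 2 and 2 reads. Apart from Mir664, too few reads were left for a difference to show at this depth.

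Of the 49 members, 44 lie inside another gene on the same strand and 37 in an intron of it, and the values of 9 hosts are set beside those of their members here. The host of Snora64, Rps2, had 1056 and 542 reads on its other tags, a fold of 0.459 (0.413 to 0.510), beside 0.622 (0.307 to 1.23) for Snora64. Rpsa, the host of Snora62, had 536 and 248 (0.414, 0.355 to 0.482), and Snora62 had 27 and 33 (1.09, 0.638 to 1.89). Rpl27a, the host of Snora3, stood at 0.494 (0.398 to 0.611) beside 0.514 for Snora3. Eif4a2 stood at 1.03 (0.850 to 1.25) beside 1.56 for Snora81. Ncl had 953 and 959 reads, a fold of 0.900 (0.822 to 0.986), beside 0.801 for Snora75. Rpl10 stood at 0.587 (0.493 to 0.699) beside 0.995 for Snora70, and Rpl32 at 0.654 (0.522 to 0.816) beside 0.944 for Snora7a. Of the hosts of the lowest members, Cop1 had 39 and 41 reads (0.941, 0.592 to 1.50) beside 0.211 for Scarna3a, and Dcaf5 had 8 and 8 (0.895, 0.293 to 2.73) beside 0.447 for Scarna3b. Fragments of a host transcript in a library of 18 to 30 nt are not its mRNA level.

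Fragments of the transcripts that encode the proteins of H/ACA particles, of their assembly and of 3′-end trimming were counted in the same way. Of 16 such genes, 10 reached 1 RPM in a library, 0 were at least 2-fold higher in AICAR and 2 stood at 0.5-fold or less, beside 5.14% and 10.4% of all symbols. These were Gar1, a core protein of H/ACA particles, with 38 and 17 reads (0.400, 0.212 to 0.727), and Parn, an exonuclease that trims 3′ ends, with 22 and 11 (0.447, 0.196 to 0.963). Dkc1, the pseudouridine synthase, had 539 and 451 reads, a fold of 0.749 (0.659 to 0.850). Tent4b, which adds adenosines to RNAs before trimming, had 12 and 26 reads, a fold of 1.94 (0.944 to 4.22). The median over the 10 was 0.822, beside 0.859 over all symbols. Terc, the telomerase RNA, which ends in an H/ACA domain, had 61 and 43 reads, a fold of 0.631 (0.417 to 0.947).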

How the data were processed

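The authors isolated total RNA, selected 18 to 30 nt, sequenced it on a HiSeq, removed low-quality and contaminant reads, and deposited the count of clean reads of each distinct tag with its length and sequence. The counts are raw, and the deposited tables hold no alignment, although the submitters' processing notes name mm9. Lengths ran from 18 to 44 nt.

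From these counts, tags were matched without mismatch, in sense, to all GENCODE vM21 transcripts (Python 3.11.15). Tags on the 1174 hairpin entries named Mir were barred. A tag that matched several genes was counted in full for each, and once in totals. A symbol was compared when DMSO or AICAR reached 1 RPM. Folds carry 95% exact Clopper-Pearson intervals and shares 95% Wilson intervals. PCR reads without molecular identifiers are not independent molecules, so both cover counting error only. Called means at least 2-fold or at most 0.5-fold. Structures came from RNAfold 2.7.2, TMM factors from edgeR 4.0.16. Positions count from 1 at the annotated 5′ end, and for a symbol with several entries 1 entry gave the positions. Scripts were tested on simulated data.

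The members and lists were chosen with earlier results of these data known. The genes named are the 12 with the highest mean RPM, up to 5 rises and 5 falls among members of at least 5 RPM with an interval without 1, every Scarna gene of at least 1 RPM, and the members that met or, for 3 more, came closest to the hairpin criteria. Other members are named beside a count or a host and were chosen after their values were seen.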

Additional observations from a re-analysis of the deposited data

How the results depend on the processing

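No paired analysis was possible because each condition has 1 library, and for the same reason no replicate could be left out. The alternative that keeps tags with 1 match in the genome was not run, because no genome sequence was used here. Other denominators shifted all log2 folds by -0.44 (reads on miRNA hairpins), 0.19 (TMM) or 0.22 (median ratio). The total ratio of 1.06 became 0.776 per hairpin read, 1.20 with TMM and 1.23 with the median ratio. It was 0.866 with tags that match members alone (8 members left), 1.54 with tags of at least 21 nt, and, chosen after seeing the data, 1.42 without Snora57, 0.994 without Snora16a, Snora57 and Snora61, and 1.47 without tags that match genes elsewhere. The median log2 fold of -0.09 became 0.13 with the median ratio. The 2 members at least 2-fold higher became 0 per hairpin read, 1 with tags that match members alone and 6 with no filter on low values. The 3 at 0.5-fold or less became 7 per hairpin read, 5 without tags read once and 1 at a minimum of 5 RPM. The shares of all symbols were not counted under these settings. Weighting genes equally, dropping Snora16a and counting distinct tags gave, for DMSO and AICAR, 50.6% and 35.6%, 35.9% and 57.4%, and 56.4% and 54.5% of reads on the 3′ side (44.6% and 71.3%). For 3′-end tags (33.8% and 58.8%) they gave 7.65% and 6.21%, 23.5% and 38.6%, and 27.1% and 26.4%, and for 20 to 24 nt (59.9% and 50.7%) 70.3% and 65.6%, 63.0% and 62.9%, and 51.3% and 55.5%. Sides cut like a miRNA numbered 2 to 4 under 4 other criteria. Of 80 values for 16 named members, 65 stayed within the main interval, 15 left it and 0 of those with an interval on 1 side of 1 changed direction. Snora57 stood at 0.811 and Snora44 at 1.75 with tags of at least 21 nt. The cause of these shifts was not tested.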

Other observations

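Tags outside the counts above matched the last nucleotides of a member and carried up to 6 further bases that are not in the annotated RNA. The genome base after the annotated end was not used here, so an added base that equals it cannot be told apart from one added after transcription. Of reads that ended within 5 nt of the 3′ end with or without such bases, 6 of 1060 in DMSO (0.566%, 95% Wilson interval 0.260 to 1.23) and 17 of 2147 in AICAR (0.792%, 0.495 to 1.26) carried only adenosines. Only uridines were carried by 14 (1.32%) and 16 (0.745%), of which 13 and 10 were on Snora41, beside 91 and 85 of its reads without added bases. For matches that stop before the last annotated nucleotide, the next base of the annotated RNA is known. Of such reads, 13 of 173 in DMSO (7.51%, 4.44 to 12.4) and 12 of 179 in AICAR (6.70%, 3.88 to 11.4) carried only uridines, and 3 and 5 only adenosines. No read carried only cytidines or only guanosines.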
